A study of Caenorhabditis elegans with 2 samples.

Results

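The starts of the nuclear tRNA genes of Caenorhabditis elegans were examined for binding of LIN-35, the pocket protein that worms have in place of the mammalian retinoblastoma proteins. Every gene of biotype tRNA on the nuclear chromosomes was taken from the Ensembl annotation of WBcel235, and a window was drawn from 500 bp upstream to 200 bp downstream of its start, in the direction of its transcription. This gave 612 windows among 46890 windows drawn in the same way for all annotated nuclear genes. Binding was mapped by chromatin immunoprecipitation with sequencing in whole first-stage (L1) larvae of both sexes. There was 1 group with 2 biological replicates, so no genotype, stage or treatment could be compared. The animals were of strain YL398, which carries the unc-119 allele ed3 and the transgene vrIs55, with the ges-1 promoter, LIN-35 joined to GFP and FLAG, the lin-35 3' untranslated region and a wild-type unc-119 copy. The ges-1 promoter is active in the gut, and the labels name the GFP fusion in one field and lin-35 in another as the precipitated protein. If only the fusion was precipitated, both the peaks at tRNA genes and their absence may describe gut cells more than the whole larva. The data are peak lists, so neither the tissue nor the tagged gene could be checked from expression, and the read depth is unknown.

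tRNA genes are short and are transcribed by RNA polymerase III. Their promoter lies inside the gene, as an A box near the start and a B box in the part that codes for the T arm, both bound by TFIIIC, which places TFIIIB just upstream of the start. In mammals retinoblastoma proteins are known to repress RNA polymerase III by binding TFIIIB. LIN-35 itself is best known from DREAM, a repressor complex at cell cycle genes.

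The 4 gene sequences below show what a tRNA gene with its internal promoter looks like. They are examples from the genes with strong peaks named below, have at most 90 bases and differ in sequence, and other genes with peaks as strong are not shown. The summits of all 4 windows lay upstream of the gene, at -242, -58, -38 and -36 bp in the order shown. Their isotypes are Ala, Pro, Leu and Lys in this order. All are from the RefSeq genome of WBcel235, which ce11 also names, on the strand of the gene and 5′ to 3′. Capitals mark a loose A box core, TRGYNNA in the first 25 bases, and a loose B box core, GWTCRANNC, where R stands for A or G, Y for C or T and W for A or T.
Y38E10A.t1, chrII:12678314-12678385, plus strand: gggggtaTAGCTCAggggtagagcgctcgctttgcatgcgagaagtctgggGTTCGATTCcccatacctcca
W09D6.t1, chrIII:11067027-11067098, plus strand: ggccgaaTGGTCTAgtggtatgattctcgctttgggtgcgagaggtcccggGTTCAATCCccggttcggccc
C04E7.t1, chrX:353255-353336, minus strand: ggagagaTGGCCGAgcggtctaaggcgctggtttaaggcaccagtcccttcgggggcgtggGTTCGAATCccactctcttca
C33G3.t2, chrX:14063946-14064018, minus strand: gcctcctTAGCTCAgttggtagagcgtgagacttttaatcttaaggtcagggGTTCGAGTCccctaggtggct
In these 4 examples the A core began at base 8 of the gene, and the B core began at base 52, 52, 62 and 53 in the order shown.

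LIN-35 peaks were more frequent at the starts of tRNA genes than at those of any other class scored. Of the 612 windows, 320 (52.3%, 95% Wilson interval 48.3 to 56.2) held the summit of a reproducible peak. The reproducible peaks are the 6712 peaks that the authors kept, from both replicates pooled, by the irreproducible discovery rate. The same windows at all 46890 gene starts held such a summit in 11.7% of cases, those at 19973 protein-coding genes in 18.4%, and consecutive tiles of 700 bp across the genome in 4.61%. The interval of the tRNA genes did not overlap that of any other class scored. These intervals cover counting error over windows only, and windows that overlap can hold the same summit.

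Among the other short RNA genes, the share was 33.2% of 346 snoRNA genes, which code for guides of RNA modification, and 21.7% of 129 snRNA genes, which code for spliceosomal and related RNAs. It was 15.7% of 261 miRNA genes and 1.46% of 15363 piRNA genes. RefSeq tRNA pseudogenes, a class added after the data had been seen, had a lower share than the tRNA genes. 7 of 209 pseudogene windows (3.35%, interval 1.63 to 6.75) held a reproducible summit, which is close to the tiles. None of the 7 was among the 6 pseudogene windows that overlap a tRNA window.

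**Figure D1:**
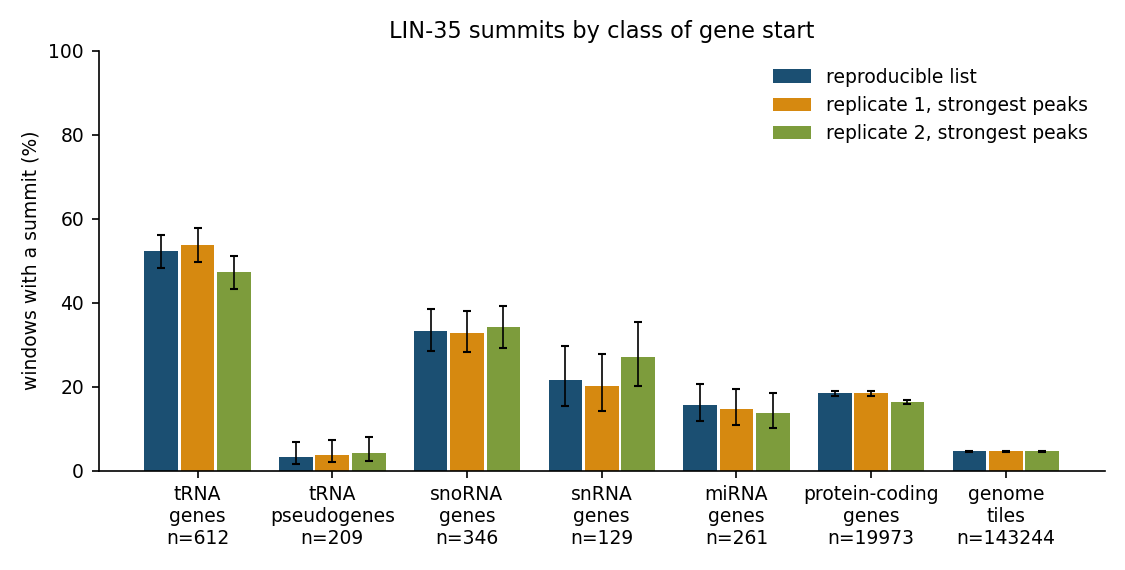
Share of gene start windows that hold a summit, in percent, by class of gene. Bars are the reproducible list and the equally long lists of the strongest peaks of each replicate, whiskers are 95% Wilson intervals, and n is the number of windows; the tRNA genes stood at 47.2 to 53.8% and every other class at 34.1% or below.

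The 2 replicates gave the tRNA genes similar shares when each was cut to its 6712 strongest peaks. Replicate 1 had a summit in 329 windows (53.8%), beside 18.4% of protein-coding genes. Replicate 2 had one in 289 windows (47.2%), beside 16.3% of protein-coding genes. In both replicates the tRNA genes thus had a higher share than the coding genes, with intervals that did not overlap. Of the 320 windows with a reproducible summit, 247 had a summit in both of these lists, 68 in that of replicate 1 only and 5 in that of replicate 2 only. At tRNA genes the reproducible set thus lay closer to replicate 1, and a reproducible peak was not always strong in both replicates. In the full replicate lists, of 30000 and 26341 peaks, 302 of the 320 (94.4%) had a summit in both. The same share was not computed for other genes with a reproducible summit.

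Some tRNA genes without a reproducible summit had a summit in the longer lists. 131 of the 292 had one in the relaxed list of 30000 pooled peaks, which raised the count to 451 windows (73.7%). With that list the share was 35.6% of protein-coding genes and 19% of genome tiles. Its label names it peaks and background, so a summit in it alone may be background. Of the 292, 65 had a summit in both full replicate lists. In the list of either replicate or of both pooled, 109 tRNA genes (17.8%) had no summit. These 2 counts over several lists were not made for other genes or tiles. In the full list of replicate 1 alone, 73.7% of tRNA windows, 35.6% of protein-coding windows and 19% of tiles had a summit. F42D1.t1, a Cys gene on X, had the best mean rank of the genes seen in both replicates but not in the reproducible set. Its signal was 67.1 in replicate 1, rank 4339 of the list, and 7.43 in replicate 2, rank 5372.

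The peaks at tRNA genes were of middle strength. A peak's signal is the enrichment that the authors' caller gave it, and it can be compared within a list only. 297 distinct summits, 4.42% of all reproducible summits, lay in tRNA windows, which cover 0.388% of the nuclear genome. Their median signal was 112, with a lowest of 47.2 and a highest of 319, while all 6712 peaks had a median of 98.5, a lowest of 45.9 and a highest of 4903. None was among the strongest 671 peaks of the list. The share of summits that lay in tRNA windows was 3.13% in ranks 672 to 1342, reached 10.1% (68 summits) in ranks 2014 to 2684 and was 1.93% in ranks 6041 to 6712. The best rank was 910 in the reproducible list, 896 in replicate 1 and 338 in replicate 2. Of the 612 windows, 198 (32.4%) held a summit of the 3356 strongest reproducible peaks, beside 11.9% of protein-coding genes.

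**Figure D2:**
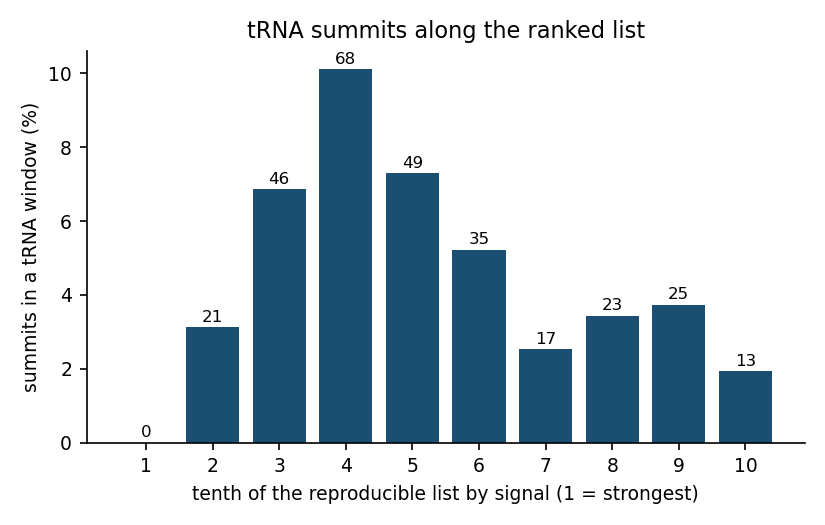
Share of reproducible summits that lie in a tRNA window, in percent, along the list cut by signal into 10 equal parts, with the number of tRNA summits above each bar. The strongest part held 0 tRNA summits and the fourth held 68, the most of any.

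The order of the tRNA genes by signal was partly shared by the replicates. Over the 302 windows with a reproducible summit and a summit in both full lists, the signal of the strongest summit had a Spearman rho of 0.659 between replicates and a Pearson r of 0.603 on the log2 scale. These are descriptions over windows, which share libraries and, in part, summits. M163.t2, a Lys gene on X, differed most in rank. Its signal was 76.5 in replicate 1, rank 3848, and 2.05 in replicate 2, rank 25680.

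**Figure D3:**
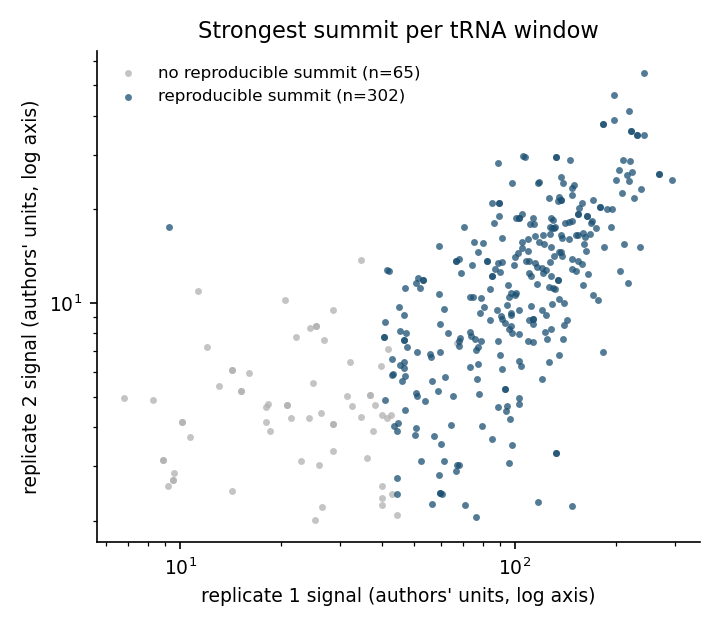
Signal of the strongest summit in each tRNA window in replicate 1 and replicate 2, in the authors' units on log axes, for windows with a summit in both full lists. The 302 windows with a reproducible summit lie mostly at high values of replicate 1, and the 65 without one lie at its lower end, with overlap in replicate 2.

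The strongest tRNA windows included genes of several isotypes on 4 chromosomes. The strongest was that of Y38E10A.t1, an intergenic Ala gene, with a signal of 319 in the reproducible list, 295 in replicate 1 and 24.9 in replicate 2. Its summit lay 242 bp upstream of the gene start, and the window touches that of a protein-coding start. F58D5.t1, a Val gene with a signal of 263, likewise had its summit far upstream, at -463 bp, in a window that touches a coding start. For both, the peak cannot be told apart from one of the neighbouring coding gene.

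Among windows clear of protein-coding starts, the strongest was shared by a pair of Pro genes, W09D6.t1 and W09D6.t2. They lie in an intron of rsa-2, a spindle assembly gene, and point away from each other. 1 summit lay between them, 58 bp upstream of the first and 50 bp upstream of the second, with a signal of 302 in the reproducible list, 270 in replicate 1 and 26 in replicate 2. C14B9.t2, a Leu gene of 122 bp in an intron of C14B9.3, had a signal of 274, 242 and 34.6 in the same order, with the summit inside the gene, at +20. F15G9.t1, an Ala gene with the same gene sequence as Y38E10A.t1, lies in an intron of him-4, which codes for the matrix protein hemicentin. Its signal was 264, 232 and 34.7, and its summit in the reproducible list lay at +72, just past the end of the gene. The strongest summit of this window lay at +103 in replicate 1 and at +66 in replicate 2. These windows were high in both replicates.

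M02F4.t1, the strongest Gly gene, and C33G3.t2, the strongest Lys gene, are intergenic genes on X clear of coding starts. Their signals were 258 and 250 in the reproducible list, 222 and 221 in replicate 1, and 35.7 and 28.7 in replicate 2. F47G6.t1, the strongest Arg gene, lies in an intron of spe-15, a myosin gene that acts in sperm, and its window touches a coding start. It had 294 in the reproducible list, 242 in replicate 1 and 54.8 in replicate 2, where it was the tRNA window with the best rank. The list of the 10 strongest was completed by C28G1.t1, a Glu gene that overlaps an exon, and C04E7.t1, a Leu gene, both with a signal of 254 and in windows that touch a coding start.

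Summits lay close to the tRNA starts, and in the reproducible list they lay upstream of the gene about as often as inside it. The median position of the 297 summits was 3 bp downstream of the nearest tRNA start, with quartiles at -17 and 25, and 245 (82.5%) lay within 50 bp of it. 287 (96.6%) lay within 100 bp. Inside the gene body, which has a median length of 72 bp, lay 146 (49.2%), and 142 lay upstream of it. Among the strongest peaks, 159 lay inside and 139 upstream in replicate 1, but 78 inside and 175 upstream in replicate 2. At protein-coding genes the fullest 50 bp bin was the one from 150 to 100 bp upstream, with a summit at 2.96% of starts. At tRNA genes the fullest were the bins from the start to 50 bp downstream, with 20.1% of starts, and from 50 bp upstream to the start, with 19.9%. Among the pseudogenes 4 of 209 had a summit in the first 50 bp of the gene.

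The replicates placed the summit differently. The median was 5 bp downstream of the start in replicate 1 and 18 bp upstream in replicate 2, and the share of summits inside the gene body was 52.1% and 29.4%. Over 252 windows with a summit of both strongest lists, that of replicate 2 was more upstream in 169 and more downstream in 83, with a median shift of -15 bp and quartiles at -44.2 and 6.75. A shift of this size does not allow the A box to be told apart from the start. Replicate 2 also had narrower peaks, with a median width of 280 bp against 340 bp among its strongest peaks, whose part in the shift was not tested.

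**Figure D4:**
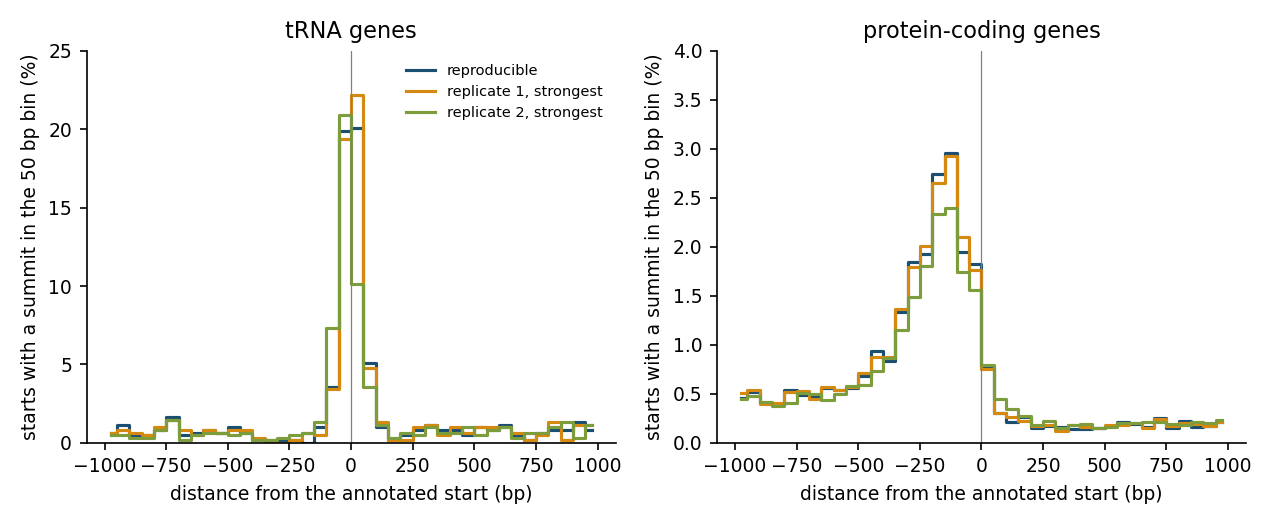
Share of starts with a summit in each 50 bp bin from 1000 bp upstream to 1000 bp downstream, in percent, for tRNA genes (left) and protein-coding genes (right, on a smaller scale), for the reproducible list and the strongest peaks of each replicate. The tRNA summits form 1 narrow group at the start, up to 20.1% in a bin of the reproducible list, and the coding summits a wide group upstream of it, up to 2.96%.

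The window edges hardly bore on these counts. 298 of the 320 windows had a summit within 100 bp of the start, and of the other 22 windows 8 touch a coding start window. The member nearest inside the upstream edge was B0491.t2, with a signal of 134 at -482, and the nearest outside was a second summit of T14F9.t1, with 62.3 at -505. At the downstream edge the nearest inside was a second summit of B0350.t1, with 57.3 at +172, and the nearest outside was that of rte-5, with 138 at +204. B0491.t2 rested on replicate 1, where its signal was 133 at -471, while its strongest summit in replicate 2 was 3.31 at +67.

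tRNA genes in introns and between genes had similar shares. 154 of the 283 tRNA genes that lie in an intron of a protein-coding gene had a reproducible summit (54.4%, interval 48.6 to 60.1). 161 of the 319 intergenic ones had one (50.5%, interval 45.0 to 55.9), as had 5 of the 10 that overlap an exon. The first 2 intervals overlap widely, and in the strongest peaks of replicate 2 the shares were 47.0% and 47.6%, so the data give no order of the 2 places. Genome tiles had a summit in 3.28% of intronic and 6.81% of intergenic cases. In introns, genes on the strand of the host had a share of 53.1% (85 of 160) and those on the other strand 56.6% (69 of 122). The 449 windows clear of protein-coding start windows had a share of 50.6%, and the 163 that touch one had 57.1%, with overlapping intervals.

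The X chromosome carries 276 of the 612 tRNA genes, and its share was close to that of the autosomes. It was 52.2% (144 of 276, interval 46.3 to 58.0) on X and 52.4% (176 of 336, interval 47.0 to 57.7) on the autosomes. Protein-coding starts had 15.5% on X and 18.8% on the autosomes. The median signal of the tRNA windows with a summit was 102 on X and 124 on the autosomes. Among the autosomes, the share ran from 42.3% on V (33 of 78) and 45.1% on IV to 48.5% on I, 61.4% on II and 68.8% on III (44 of 64, interval 56.6 to 78.8). III also had the highest share of protein-coding starts, 26.5%, and V the lowest, 13.8%. Between these the 2 orders differed, with coding shares of 24.1% on I, 17.8% on II and 16.7% on IV. The order of I, II and IV by tRNA share did not hold between replicates. Among the strongest peaks of replicate 2 the tRNA share was 54.9% on IV and 45.6% on II, against 45.1% and 64.9% in replicate 1.

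**Figure D5:**
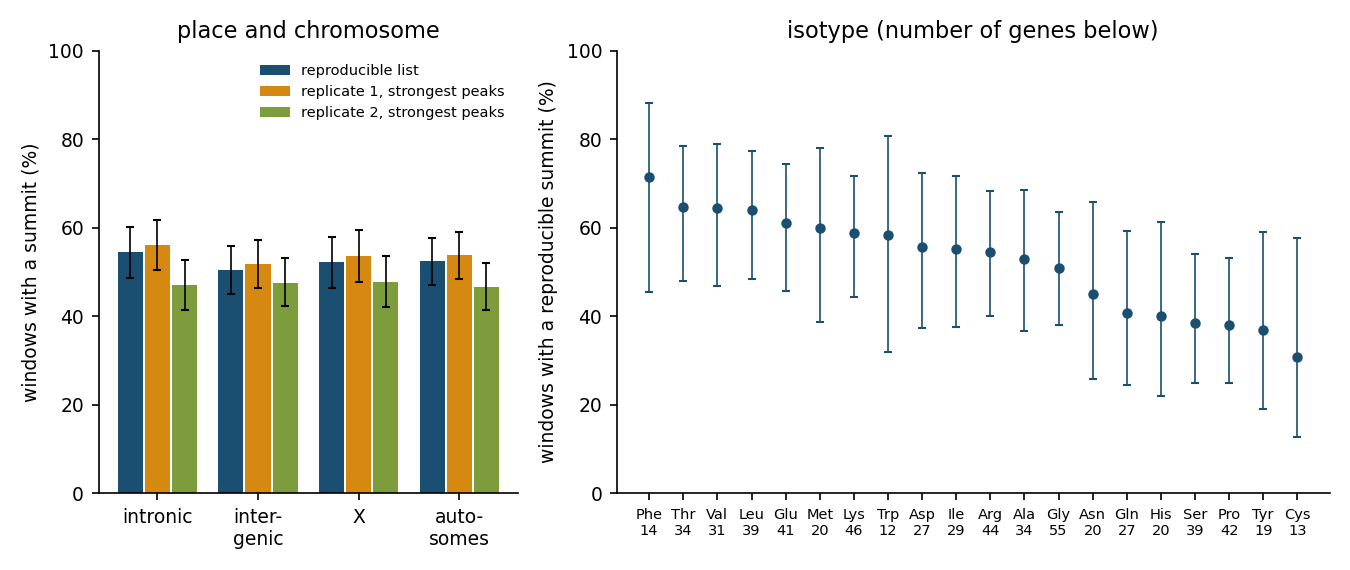
Left, share of tRNA windows with a summit, in percent, by place and chromosome, for the reproducible list and the strongest peaks of each replicate. Right, the same share by isotype for the reproducible list, with the number of genes below each name; whiskers are 95% Wilson intervals, which overlap between neighbours throughout.

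Every isotype of at least 10 genes had members with and without a summit. RefSeq gives the isotype of 607 of the genes, in 21 isotypes, 20 of which have 10 or more genes. Phe had the highest share, 71.4% (10 of 14, interval 45.4 to 88.3), followed by Thr with 64.7%, Val with 64.5% and Leu with 64.1%. Cys had the lowest, 30.8% (4 of 13, interval 12.7 to 57.6), and Tyr, Pro and Ser stood at 36.8%, 38.1% and 38.5%. Even the highest and the lowest interval overlap. Cys was not lowest in either replicate, with 53.8% (7 of 13) among the strongest peaks of each, while Tyr was lowest in both, with 36.8% in replicate 1 and 31.6% in replicate 2. The largest isotypes, Gly, Lys and Arg, had 28 of 55, 27 of 46 and 24 of 44 windows with a summit. The 1 selenocysteine gene had a summit, and 0 of the 5 genes of undetermined isotype had one.

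Copies of an identical gene sequence often differed in whether a summit was called. The depth and the handling of reads with several matches are not given, so a copy without a summit may still be bound. The 612 genes have 200 distinct sequences, 57 of which occur in 2 or more copies, and in 40 of these 57 some but not all copies had a reproducible summit. The largest family, of 29 identical Gly genes, had a summit at 16. The next, of 25 Lys genes, also had one at 16. Over the 20 families of 10 or more copies the share ran from 27.3% to 75%.

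The family of 24 identical Pro genes, chosen for display after its values were seen, had a summit at 9 copies (37.5%). It holds W09D6.t1, whose sequence is shown above and whose window had a signal of 302, and R04D3.t3, in an intron of srxa-8 on X, which had no summit in any list. Since the genes are identical, the sequences that differ are the flanks, and the 50 bases just upstream of each are shown for that reason, with no base in capitals.
W09D6.t1, upstream, chrIII:11066977-11067026, plus strand: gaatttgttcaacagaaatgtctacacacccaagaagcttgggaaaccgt
R04D3.t3, upstream, chrX:13307980-13308029, plus strand: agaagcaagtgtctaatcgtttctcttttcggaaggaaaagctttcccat
These flanks have a G and C content of 42% and 40%. The summit of W09D6.t1 lies at -58, outside the 50 bases shown. W09D6.t2, another copy of this family, is counted among the 9 through the same summit.

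Genes whose sequence occurs once had fewer summits than genes with copies. The share was 32.2% (46 of 143, interval 25.1 to 40.2) for single-copy genes and 58.4% (274 of 469, interval 53.9 to 62.8) for the others. It was 62.2% with 2 to 5 copies, 61.0% with 6 to 10 and 56.4% with 11 or more, so it did not rise with the number of copies beyond that. Both replicates showed the difference, with 32.2% against 60.3% in replicate 1 and 30.8% against 52.2% in replicate 2. With the relaxed pooled list both shares were higher, 58.0% against 78.5%, and with the 3356 strongest peaks lower, 20.3% against 36.0%. This split was made after the data had been seen. How the authors placed reads that match several copies is not given in the sources used here, and its part in the result was not tested. The labels give fragments of 150 to 350 bp, longer than the gene, so fragments can reach into the flanks.

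The box cores were nearly universal and so could tell few genes apart. The loose B core was found on the gene strand in 602 of the 612 genes, 79.4% of the pseudogenes and 1.39% of 72 bp tiles of the genome. The loose A core was found in the first 25 bases of 598 genes, 95.2% of the pseudogenes and 6% of the tiles. 3 of the 24 genes that lack either core had a summit (12.5%, interval 4.34 to 31.0), and 317 of the 588 with both had one (53.9%, interval 49.9 to 57.9). In the strongest peaks of replicate 2 these shares were 20.8% (5 of 24) and 48.3%, and 4 of the 10 genes without the B core had a summit there, against 2 of 10 in the reproducible list. These loose forms were set after the data had been seen. Of the 24 genes that lack a core, 22 are single-copy genes, and 3 of these had a summit (13.6%, interval 4.75 to 33.3). Single-copy genes with both cores had a share of 35.5% (43 of 121, interval 27.6 to 44.4), which is below that of genes with copies. The 2 single-copy intervals overlap, so the cores cannot be told apart from copy number here. The strict B core GTTCGANTC was held by 46.7% of the genes, of which 53.8% had a summit against 50.9% of those without it. For the strict A core TGGCNNAG, held by 17.6% of the genes, the shares were 51.9% and 52.4%.

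Motifs of the DREAM complex and its partners were not more frequent at tRNA summits than at the other reproducible summits. The search took either strand and reached 75 bp to each side of a summit, with S for C or G. The cell cycle homology region motif TTYRAA was found at 36.0% of 297 tRNA summits (interval 30.8 to 41.6), 41.1% of the 6415 other summits and 56.2% of genome tiles of the same length. The E2F motif TTSSCGC was found at 9.76% of tRNA summits, 12.8% of the others and 4.81% of the tiles. The shorter E2F form SGCGC, which can overlap the longer one, was found at 34.7%, 36.6% and 9.74%. A match of these letters is not a bound site, and a B box core that reads GTTCGAATC, as in C04E7.t1 above, itself holds TTYRAA. The same gene also holds GGCGC, a match of SGCGC, so the sequence of a tRNA gene can itself supply matches of both motifs.

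A list of protein-coding genes for RNA polymerase III, its factors and the snRNA activating complex SNAPc was also scored. Of its 24 matched genes, 13 had a reproducible summit at their start (54.2%, interval 35.1 to 72.1), beside the 18.4% of all protein-coding genes. Most of the 13 were subunits shared with other polymerases or SNAPc genes, so this share does not describe tRNA transcription alone. The symbols rpc-9, bdp-1 and snpc-3.3 had no match in the annotation. The strongest were rpb-8, a subunit shared by the RNA polymerases, with a signal of 1016, and mafr-1, the worm Maf1 and a known repressor of RNA polymerase III, with 831. The shared subunits rpb-6, rpb-12, rpb-5 and rpb-10 had 647, 335, 245 and 219. These genes serve more than 1 polymerase, and so does rpac-19, with 148. Of the genes specific to RNA polymerase III, the largest subunit rpc-1 had a signal of 407 and the TFIIIC subunit tftc-1 had 127. The SNAPc genes snpc-3.4, snpc-1.1, snpc-4 and snpc-1.2 had 600, 423, 180 and 52.5.

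The TFIIIB genes brf-1 and tbp-1 had no summit, nor had the polymerase subunits rpc-2, rpc-11, rpc-25 and rpac-40, the TFIIIC subunits tftc-3 and tftc-5 or the SNAPc genes snpc-1.3, snpc-3.1 and snpc-3.2. Of 7 genes that act on tRNAs, 4 had a summit (57.1%, interval 25 to 84.2, against 18.4% of all protein-coding genes). These were pus-1, a pseudouridine synthase, with 242, trm-1, a tRNA methyltransferase, with 241, xpo-3, a tRNA exporter, with 170, and cars-1, a cysteinyl-tRNA synthetase, with 48.0. The tRNA processing genes hoe-1, rtcb-1 and tsen-2 had none. The median signal of the first list, 335, was above the 112 of the tRNA windows.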

How the data were processed

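Per the labels, the authors deposited ce11 peak lists for each of 2 replicates, for both pooled and for the set thresholded by the irreproducible discovery rate. The notes beside the lists say that a control alignment served in the calling; it was not analysed here. Aligner, peak caller, settings and the handling of reads with several matches: not given in the sources used here. Each deposited list gives a signal per peak, in the authors' units, and how far its summit lies from the peak start. A window was scored by the summits inside it; replicate lists were also cut to the 6712 peaks of highest signal. The annotation was that of Ensembl release 115 for WBcel235, also named ce11; isotypes, pseudogenes and sequence were taken from RefSeq. All 612 tRNA genes had the same coordinates in both. A gene was intronic when it lay inside a protein-coding gene and touched no exon of any protein-coding gene.

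Shares carry 95% Wilson intervals, and no test was made, since there is 1 group. The members, lists and motifs were chosen with earlier results of these data known. Genes named are the nearest to the 10 strongest summits, the strongest by place, chromosome and large isotype, and those at window edges, with the largest rank difference or seen in both replicates only. Alternatives were other windows, lists, overlaps, merged loci, windows clear of coding starts and each replicate alone; pseudogenes, looser cores, copy numbers, flanks and distances were added after seeing the data. On simulated data 300 of 300 planted summits and 150 of 150 planted places were recovered, and counts equalled those of bedtools 2.31.1 in all 612 windows. Python 3.11.15, numpy 2.4.6, pandas 2.3.3, statsmodels 0.14.6 and matplotlib 3.10.9 were used. No column of unknown origin was used.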

Additional observations from a re-analysis of the deposited data

How the results depend on the processing

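No paired analysis was possible because there is 1 group. Of 91 values under 10 alternatives, 62 stayed within the main value's interval or the spread between replicates and 29 did not. The share of tRNA windows with a summit was 32.4% with the 3356 strongest peaks, 73.7% with the pooled relaxed list and 56.4% with overlapping windows merged into loci, and 47.2 to 53.8% with 1 replicate left out. Under the first 3 of these it was 28.3%, 69.2% and 60.0% on X, beside 52.2%. With the strongest peaks and the relaxed list it was 35.7% and 77.4% on the autosomes, 34.3% and 77.0% for intronic genes and 30.4% and 71.2% for intergenic genes. Without a replicate it was 47.8 to 53.6% on X, 46.7 to 53.9% on the autosomes, 47.0 to 56.2% for intronic and 47.6 to 51.7% for intergenic genes. So X and the autosomes were not equal under every choice, and the cause was not tested. Without a replicate the median position was -18 to 5 bp. The median rank of tRNA summits, 43.8% of the way down the list, was 66.6% in the 3356 strongest, 13.2% in the relaxed list and 42.0% clear of coding starts, lists of other lengths or fewer windows by construction, and 42.8 to 44.2% without a replicate. The pseudogene share was 1.44% with the strongest peaks and 23.0% with the relaxed list, and 3.83 to 4.31% without a replicate. Genome tiles had 2.33% with the strongest peaks and 19% with the relaxed list. The 31 matched genes for RNA polymerase III, SNAPc and action on tRNAs together had 54.8%. This share was 35.5% with a window of 250 bp either side, 71% with the relaxed list and 45.2 to 54.8% without a replicate. All protein-coding genes had 35.6% with the relaxed list and 16.3 to 18.4% without a replicate. Their share with the window of 250 bp was not computed, so the fall to 35.5% has no background beside it. Isotype shares and motifs were not recomputed for every alternative. Depth is unknown, so a missing peak is not evidence of no binding.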

Other observations

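The share of tRNA genes with a reproducible summit differed with the distance to the next tRNA gene, but not in the relaxed list. The share was 44.3% (82 of 185, interval 37.4 to 51.5) where another tRNA gene lay within 700 bp, 50.3% (94 of 187) farther away but within 10000 bp, and 60.0% (144 of 240, interval 53.7 to 66.0) beyond that. In the strongest peaks of replicate 2 these shares were 43.2%, 39.0% and 56.7%, so the order of the first 2 classes was not stable. In the pooled relaxed list the shares were 75.1%, 72.7% and 73.3%, with no such difference. Windows of clustered genes can share a summit, and 28 of the 297 summits lay in the windows of 2 or more tRNA genes.

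The 50 bases upstream of the gene had a mean G and C content of 44.6% ± 8.52 (SD over 320 genes) where the window had a reproducible summit and 40.4% ± 9.90 (SD over 292 genes) where it had none, and the spreads overlap widely. A run of TTTT, the usual stop signal of RNA polymerase III, lay within the 20 bases after the gene in 602 genes, of which 318 had a summit. Of the 10 genes without it 2 had one. These splits were chosen after the data had been seen.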
